A study of Drosophila melanogaster with 2 samples.

Results

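The cytoplasmic ribosomal protein genes of Drosophila melanogaster were examined in a map of the binding sites of charlatan, a zinc finger transcription factor encoded by chn. Members were the protein-coding genes whose annotated symbol starts with RpL or RpS followed by a number, with sta and the 3 stalk protein genes RpLP0, RpLP1 and RpLP2 added. This rule gave 86 of the 13968 protein-coding genes on the major chromosomes, of which 45 encode proteins of the large subunit, 38 of the small subunit and 3 of the stalk. The rule used names only and no binding value. Mitochondrial ribosomal protein genes carry other symbols and are not included.

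Binding was mapped by ChIP-seq, the sequencing of DNA that is precipitated with a protein, in whole embryos of both sexes aged 0 to 24 h. They were of the transgenic strain chn-GFP, which stably expresses charlatan tagged at its C terminus with GFP (the fusion is also labelled chn-eGFP), and an anti-GFP antibody was used on chromatin sonicated to 200 to 800 bp. There was 1 group, made of 2 biological replicates, and every embryo carried the tagged protein, so conditions could not be compared. The control library behind the peak calls was not analysed here.

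Ribosomal proteins and ribosomal RNA make up the ribosome, in which the small subunit reads the mRNA and the large subunit joins amino acids, and the stalk recruits the elongation factors. Flies need these proteins in matched amounts, and loss of a single copy of many of the genes gives the Minute phenotype of slow growth and short bristles. Their promoters usually lack a TATA box and start transcription within a pyrimidine stretch called the TCT initiator. Promoter elements known from them and from other housekeeping genes include the DNA replication-related element (DRE), read by Dref, and motif 1, read by M1BP.

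A gene was called bound when a summit of the thresholded peak set, selected for reproducibility by the irreproducible discovery rate (IDR), lay within 1000 bp of any of its annotated transcription start sites. The thresholded set held 4537 summits and was the strongest part of a relaxed pooled list of 30000. Each replicate had a relaxed list of 30000 summits as well. Rank 1 is the summit of highest deposited signal in a list, and the signal has meaning only within its own list. Positions are in bp from the nearest start of the gene, negative upstream. Read totals are not part of the lists and the depth is unknown, so a start outside the thresholded set may still be occupied. In whole embryos, binding in fewer cells and weaker binding per cell cannot be told apart.

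The sequences that follow are promoters of members, read from the RefSeq Release 6 genome (dm6), each with 100 bases before an annotated start and 30 bases from it, in the gene's direction. Capitals mark matches to the TCT initiator (T or C, then CTTT, then T or C) within 10 bp of the start, and to the short sequences described further on. The first 4 belong to members with some of the strongest summits. They are RpS27 at chr3R:25247485-25247614 on the minus strand, RpL34b at chr3R:9401197-9401326 on the minus strand, RpL23A at chr3L:1668625-1668754 on the minus strand and RpL14 at chr3L:8600906-8601035 on the plus strand. The summit lay 17 bp upstream of the start at RpS27, 77 bp upstream at RpL34b, 59 bp upstream at RpL23A and 51 bp upstream at RpL14.
RpS27: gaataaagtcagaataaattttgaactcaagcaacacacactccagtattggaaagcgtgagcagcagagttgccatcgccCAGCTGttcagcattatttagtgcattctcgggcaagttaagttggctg
RpL34b: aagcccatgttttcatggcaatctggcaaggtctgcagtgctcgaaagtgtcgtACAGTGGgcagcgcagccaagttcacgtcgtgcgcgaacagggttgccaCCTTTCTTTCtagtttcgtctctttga
RpL23A: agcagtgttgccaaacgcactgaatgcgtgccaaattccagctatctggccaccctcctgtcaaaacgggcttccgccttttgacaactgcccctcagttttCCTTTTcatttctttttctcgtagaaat
RpL14: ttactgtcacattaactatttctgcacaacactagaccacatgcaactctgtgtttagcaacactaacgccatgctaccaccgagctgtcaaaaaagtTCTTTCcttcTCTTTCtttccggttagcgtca

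The 3 further promoters hold elements that recurred at members. RpLP1 has the core of motif 1 (GGTCACAC), RpS25 has the DRE (TATCGATA), and RpL8 has 3 overlapping TCT matches. They are RpLP1 at chr2L:419852-419981 on the plus strand, RpS25 at chr3R:11216258-11216387 on the minus strand and RpL8 at chr3L:2587356-2587485 on the plus strand.
RpLP1: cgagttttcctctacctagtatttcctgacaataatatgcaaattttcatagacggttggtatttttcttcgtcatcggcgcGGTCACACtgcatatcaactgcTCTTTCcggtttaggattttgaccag
RpS25: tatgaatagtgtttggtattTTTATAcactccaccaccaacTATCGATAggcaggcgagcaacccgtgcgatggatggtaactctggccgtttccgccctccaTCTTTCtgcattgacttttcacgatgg
RpL8: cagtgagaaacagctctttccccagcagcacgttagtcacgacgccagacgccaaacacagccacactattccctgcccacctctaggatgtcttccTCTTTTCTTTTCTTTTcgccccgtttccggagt

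The next 3 show a pair of gene copies that differed in binding, and a gene with no summit in the pooled list. RpS14b was bound and its copy RpS14a was not, yet both hold a TCT match. They are RpS14b at chrX:7934798-7934927 on the plus strand, RpS14a at chrX:7933642-7933771 on the plus strand and RpL10 at chr3L:23095442-23095571 on the minus strand.
RpS14b: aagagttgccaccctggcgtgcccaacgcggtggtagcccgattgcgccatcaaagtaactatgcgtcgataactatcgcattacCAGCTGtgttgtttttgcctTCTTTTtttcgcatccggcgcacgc
RpS14a: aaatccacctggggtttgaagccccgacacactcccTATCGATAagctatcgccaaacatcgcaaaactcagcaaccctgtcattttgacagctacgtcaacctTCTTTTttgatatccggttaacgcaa
RpL10: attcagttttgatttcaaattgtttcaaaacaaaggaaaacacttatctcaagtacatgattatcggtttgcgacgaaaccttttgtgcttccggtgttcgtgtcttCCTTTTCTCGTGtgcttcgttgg

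Of the 86 ribosomal protein genes, 62 (72.1%) were bound, against 3370 of all protein-coding genes (24.1%). When each summit was given only to the gene with the nearest start, 52 members (60.5%) were bound against 17.4% of all genes. With the 1000 strongest summits, 20 members (23.3%) were bound against 7.16% of all genes. At the other end of the scale, 83 members (96.5%) had some summit in the relaxed pooled list, against 60.3% of all genes. The share of members thus stood above that of all genes under each of these call rules.

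The 3 stalk genes were all bound, as were 34 of the 45 large subunit genes (75.6%) and 25 of the 38 small subunit genes (65.8%). Bound large subunit genes had a median rank of 1352, and bound small subunit genes one of 1868, with ranges of 125 to 3901 and 100 to 3892 that cover each other. On the X chromosome 13 of 14 members were bound, although 22.4% of all X-linked protein-coding genes were, a share below that of the genome. On the other large arms the bound share of members ran from 64.3% (9 of 14, arm 3L) to 76.5% (13 of 17, arm 2L). RpS3A, the single member on chromosome 4, was outside the thresholded set.

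**Figure D1:**
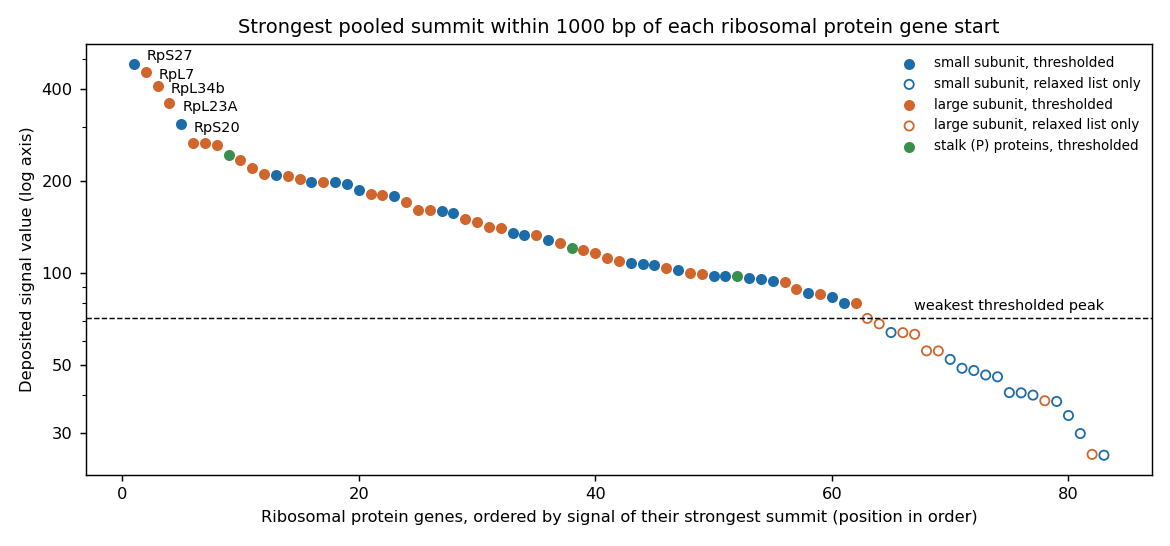
Signal of the strongest pooled summit within 1000 bp of each ribosomal protein gene that had one, in falling order, on a log axis. Filled points are the 62 bound genes and open points the 21 genes with a summit in the relaxed list only, and the dashed line is the weakest peak of the thresholded set. The fall is gradual on both sides of that line, with RpS27, RpL7, RpL34b, RpL23A and RpS20 above the rest.

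The plotted signals fell without a wide step at the threshold, from 79.9 at RpL7A to 71.2 at RpL12. The plot is sorted by signal and leaves out the 3 members with no pooled summit, so it cannot show whether unbound genes form a separate class. The 62 bound members each had their own strongest summit, and none of them shared it with another member. Their median rank was 1612, near the 1888 of all bound genes, and their median signal was 141 against 127. Only 8 of 62 (12.9%) ranked 500 or better, against 16.1% of all bound genes, and 20 (32.3%) ranked 1000 or better, against 29.7%. Members were bound more often than all genes, and their ranks were close to those of other bound genes.

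RpS27, a zinc-binding protein of the small subunit, had the strongest summit of any member, ranked 100 in the pooled list with a signal of 482. Its ranks were 137 in replicate 1 and 94 in replicate 2. RpL7, of the large subunit, ranked 125, with 106 and 162 in the replicates. RpL34b ranked 156, with 165 and 170. RpL23A, which sits at the mouth of the tunnel through which the new peptide leaves, ranked 220, with 265 and 187. These 4 genes stayed among the 300 strongest summits of both replicates, and no other member did.

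The next members by rank were RpS20 at 317, RpL14 at 428, RpL28 at 435 and RpL32 at 445. RpS20 ranked 344 and 289 in the replicates. RpL28 ranked 695 and 297. RpL14 and RpL32 were closer between the replicates, with 469 and 401 for RpL14 and 382 and 542 for RpL32. RpLP0, the protein at the base of the stalk, came ninth at rank 509, with 536 and 511. RpL41, the smallest ribosomal protein, ranked 566, with 394 and 1129. RpL13A (652), RpL24 (715), RpS16 (735), RpL26 (742) and RpL19 (789) complete the 15 strongest, with signals between 202 for RpL19 and 219.7 for RpL13A. Of these 15 genes, 11 encode large subunit proteins, 3 small subunit proteins and 1 a stalk protein.

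The other stalk genes ranked lower than RpLP0. RpLP1 ranked 2024, with 2020 and 2507 in the replicates, and RpLP2 ranked 2868, with 2101 and 3809. Both encode the acidic proteins that pair on the stalk. RpL4, which lines the exit tunnel, ranked 1436, and RpL11, a partner of 5S ribosomal RNA, ranked 1507. The protein sta, a small subunit member related to the laminin receptor, ranked 1868. RpS27A is made as a fusion with ubiquitin and ranked 2841, whereas RpL40, the other ubiquitin fusion, was outside the thresholded set at rank 10936. RpS6, the target of S6 kinase, ranked 2850 through a summit 501 bp upstream of its start.

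The 5 weakest bound members were RpS10b at rank 3496, RpL35A at 3533, RpS19a at 3635, RpS2 at 3892 and RpL7A at 3901. RpL7A had a signal of 79.9, and the weakest peak of the thresholded set had 71.4. Just outside the threshold were RpL12 at rank 4567 with a signal of 71.2 and RpL39 at rank 4848 with 68.3. Values on the 2 sides of the threshold thus lay close together.

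Member summits lay closer to the start than those of other bound genes. The median position was -33.5 bp for the members and -119 bp for all bound genes. Bound members had a median of 2 annotated starts and all bound genes 1, and more starts can shorten the distance to the nearest. With the outermost start only, the members' median was -26.5 bp, and no such value is given for all bound genes. The summit lay within 50 bp of the gene's own start at 35 of 62 members (56.5%), against 17.1% of all bound genes, and within 100 bp at 49 (79.0%), against 35.7%. Between 120 bp upstream and 40 bp downstream lay 52 member summits (83.9%), against 37.9%. The edges of this band lie close to the outermost of these summits, -118 bp at RpL34a and 34 bp at RpL7A, so this share favours the members. The summit was upstream at 48 members (77.4%, against 83.5% of all bound genes). It was on the start base itself at RpL24, and downstream at 13 (21.0%, against 16.4%). By annotation, 42 summits lay upstream of the whole gene and 17 (27.4%, against 12.3% of all bound genes) in an untranslated exon, with 2 in an intron, 1 beyond the gene's end and 0 in a coding exon.

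**Figure D2:**
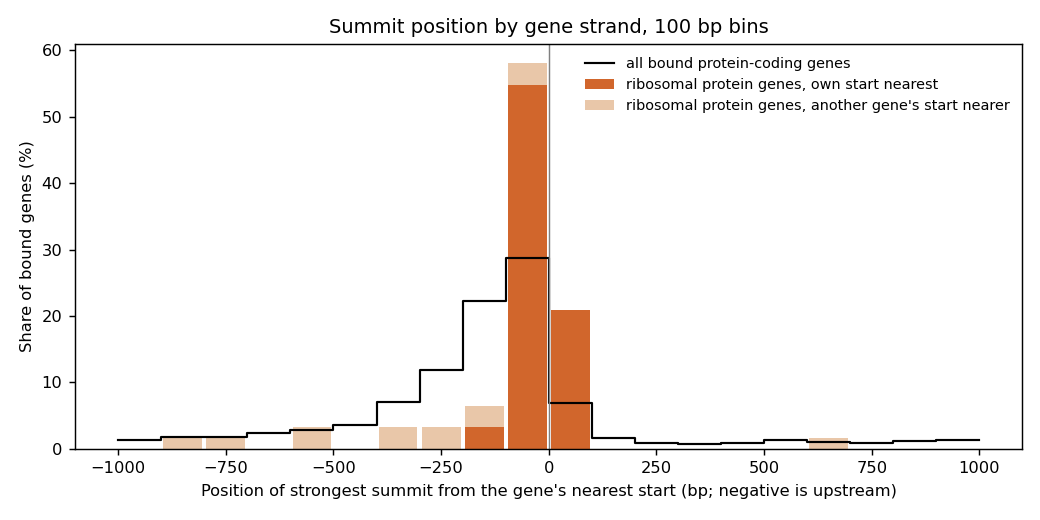
Share of bound genes by the position of their strongest summit, in 100 bp bins from the nearest start of the gene, negative upstream. Bars are the 62 bound ribosomal protein genes, dark where their own start was the nearest and pale where another gene's start was nearer, and the line is all 3370 bound genes. The dark bars lie between -105 and 70 bp, and the line reaches farther upstream.

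For the 49 members whose own start was the nearest to the summit, the position ran from -105 bp at RpL26 to 70 bp at RpL35, with a median of -20 bp. For all bound genes of that kind the median was -75 bp. The 17 bound members with no other protein-coding start within 1000 bp of the summit gave a median of -9 bp, from -101 bp at RpL11 to 24 bp at RpL30, and all bound genes of this kind gave -105 bp. The short distance was also present where no other protein-coding gene started nearby. Matched replicate summits of a member were a median of 15.5 bp apart, and those of all bound genes 20 bp. Only summits within 100 bp of the pooled one were matched. These gaps thus leave out larger disagreements, and they describe single summits and not the error of a median.

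All 9 bound members with a summit farther than 200 bp from their own start had another gene's start nearer to it, against 47.3% of the bound genes with such a summit. At RpS6 the summit was 48 bp from the start of bys, a gene for ribosome assembly. At RpS19b it was 888 bp upstream and 506 bp from CG5854. The summit of RpS28a lay 672 bp downstream of its start and 245 bp from the start of Mgat2, a glycosyltransferase gene. RpS15 (-579 bp) and RpL18 (-316 bp) had summits nearer to CG4927 and Neos. For RpS6, RpS19b, RpS28a and RpS15 the assignment rests on the 1000 bp reach, as a reach of 500 bp leaves them out. RpL18 stays bound with 500 bp. At these 5 genes no thresholded summit lay nearer to their own start.

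RpS20, RpL23 and RpS28b also had their strongest summit beyond 200 bp, but each had a weaker thresholded summit at its own start. RpS20 had the strong summit of rank 317 at -231 bp, which lay 102 bp from CG17271, and a second of rank 4399 at -25 bp. RpL23 had ranks of 1735 at -359 bp and 2325 at -93 bp. RpS28b had ranks of 840 at -734 bp, nearest to l(1)G0320, and 1240 at -21 bp. In all, 7 bound members (11.3%) had more than 1 thresholded summit, against 16.7% of all bound genes. RpL34b had 3, the strongest at -77 bp and the others of rank 1624 at -285 bp and of rank 2828 at 915 bp, beyond the end of the gene.

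Many members shared the region around the summit with a neighbour. Another protein-coding start lay within 1000 bp of the summit at 45 of 62 bound members (72.6%), against 62.6% of all bound genes. At 43 of these 45 (95.6%) the nearest such gene was transcribed away from the member on the opposite strand. The nearest was on the opposite strand at a similar share, 91.7%, of all bound genes with such a neighbour. RpS27A was an exception, because Ip259 starts at the same base on the same strand. RpS28a and Mgat2 were the other exception. Strong member summits lay beside Nup37, a nuclear pore gene (RpS27, 127 bp from its start), Ripalpha (RpL7, 47 bp) and Nelf-E, a subunit of the negative elongation factor (RpL14, 76 bp). The summit of RpL13, at -85 bp, lay 1 bp from the start of Dref, the gene for the factor that reads the DRE. At such shared promoters the lists cannot assign a summit to either gene.

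Members with another protein-coding start within 1000 bp of their own were bound in 46 of 55 cases (83.6%), and those without in 16 of 31 (51.6%). The corresponding shares of all genes were 37.6% and 14.0%. Members were thus above all genes in both classes. In the second class the nearest-start rule left the count at 16, but by the definition of the class it could remove little there. Among all genes of that class it left 1101 of 1117. Members with 2 or more annotated starts were bound in 36 of 44 cases (81.8%, against 39.0% of all such genes), and members with 1 start in 26 of 42 (61.9%, against 18.8%). Many ribosomal protein genes carry small nucleolar RNA genes within their introns. Of the 29 members with such a gene within their span 22 (75.9%) were bound, and of the 57 others 40 (70.2%), while 51 of all 84 protein-coding hosts (60.7%) were bound. The 84 hosts include the 29 members, and the 51 bound hosts include the 22.

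The 24 members outside the thresholded set were 11 of the large and 13 of the small subunit. Of these, 21 had a summit in the relaxed pooled list, with a median rank of 8260, and at 16 of the 21 it lay within 200 bp of the gene's start. The nearest to the threshold after RpL12 and RpL39 were RpS3A (5287), RpL38 (5293) and RpL5 (5398), which with RpL11 binds 5S ribosomal RNA. RpL15 (6402), RpL10Ab (6405), RpS13 (7001), RpS24 (7872), RpS30 (8260) and RpS9 (9987) ranked lower. RpS3, at the mRNA entry channel, had a rank of 10256, and RpL40 (10936), RpS14a (11022), RpS15Ab (12994), RpL6 (20946) and RpS10a (21195) ranked beyond it. RpL10, RpL10Aa and RpL21 had no summit in the pooled list.

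RpL10, a large subunit protein that is placed late in assembly, had a summit in replicate 2 alone. It ranked 2738 there, with a signal of 44.1, at 9 bp downstream of the start, and replicate 1 and the pooled list had none within 1000 bp. RpL10Aa and RpL21 had none in any of these lists. Repeated sequence was checked at the starts, since reads from it can be lost in mapping. Every stretch of 36 bases within 200 bp of the outermost start occurred once in the genome at all 24 members outside the set and at 60 of the 62 bound members.

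Some duplicated members were bound at 1 copy only. Of 8 pairs of copies named with a and b, 3 had both copies bound, 4 had 1 copy bound and RpL10Aa with RpL10Ab had neither. The bound share of all members was 72.1%, and whether the pairs depart from it was not tested. In the 4 pairs with 1 bound copy that copy was X-linked, as with RpS10b (rank 3496, its copy RpS10a 21195), RpS15Aa (2447, RpS15Ab 12994) and RpS14b (2487, RpS14a 11022). RpS14a and RpS14b lie side by side on the X, in the same direction. The 4 bound copies had summits between -62 and 33 bp from their starts.

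The 3 pairs with both copies bound were less alike than that count. RpL34b ranked 156 at -77 bp, and RpL34a ranked 1268 at -118 bp, 111 bp from the start of Trmt61 and so slightly nearer to it. RpS19a had a summit of its own at -7 bp with rank 3635, and RpS19b, a copy known from the germline, was counted only through the summit nearer to CG5854. RpS28b had a summit at -21 bp, and RpS28a was counted only through the one near Mgat2. With summits given to the nearest start alone, 7 of the 8 pairs had 1 bound copy, among them RpS10b, RpS14b, RpS15Aa, RpS19a, RpS28b and RpL34b, and 0 had both. The loss of RpL34a by this rule is uncertain, as it rests on 118 bp against 111 bp and its replicate summits lay 59 bp apart. By that rule 60.5% of all members were bound, and the split of the pairs was not tested.

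**Figure D3:**
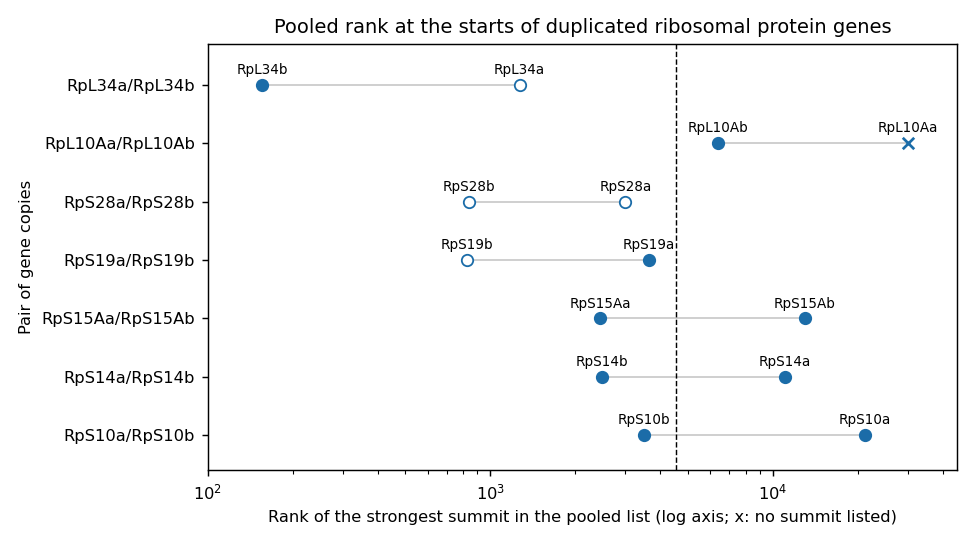
Rank of the strongest pooled summit at each copy of 7 of the 8 duplicated ribosomal protein genes, on a log axis, with the last thresholded rank of 4537 as a dashed line. Open circles mark copies for which another gene's start was nearer to the summit, and the cross is RpL10Aa, which had no summit. The line falls between RpS10b and RpS10a, between RpS14b and RpS14a, and between RpS15Aa and RpS15Ab.

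Of 7 copies whose symbols the rule did not take, 2 were bound, against 24.1% of all protein-coding genes. RpL37-1 was bound at rank 2672 and RpL37-2 had no pooled summit. RpL22 ranked 823, and RpL22-like, known as its testis form, had none. RpL24 ranked 715 and RpL7 ranked 125, whereas RpL24-like (5575) and RpL7-like (20576) were outside the thresholded set. RpLP0-like, which acts in ribosome assembly and not in the stalk, was bound at rank 1743. Its summit lay nearer to the start of 14-3-3zeta, at 9 bp from it. RpS28-like had no summit.

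The replicates gave the same count for the members. With the 4537 strongest summits of replicate 1 alone, 62 members were bound, and with those of replicate 2 also 62, against 24.1% of all genes in each. Both lists had 58 members (67.4%, against 20.1% of all genes) and neither had 20. RpL12, RpL7A, RpS14b and RpS6 were bound in replicate 1 only, and RpL10, RpL5, RpS2 and RpS3A in replicate 2 only. RpL12 ranked 3425 in replicate 1 and 13386 in replicate 2. RpS3A, by contrast, ranked 7158 and 4125.

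Of the 62 strongest member summits, 60 had a summit within 100 bp in both replicate lists. RpL23 had none in replicate 2 and RpL35 none in replicate 1. At 47 of the 60 (78.3%) the replicate ranks were within a factor of 2, against 83.2% of all bound genes. The largest ratios were at RpS14b (1614 and 6093), RpS21 (639 and 2199) and RpS4 (570 and 1835), each stronger in replicate 1. The rank was better in replicate 1 at 37 of 60 members (61.7%), against 49.5% of all bound genes. Spearman's rho between the replicate ranks was 0.795 over the 60 members and 0.807 over 3217 bound genes, a description over summits picked from the pool of these same libraries.

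**Figure D4:**
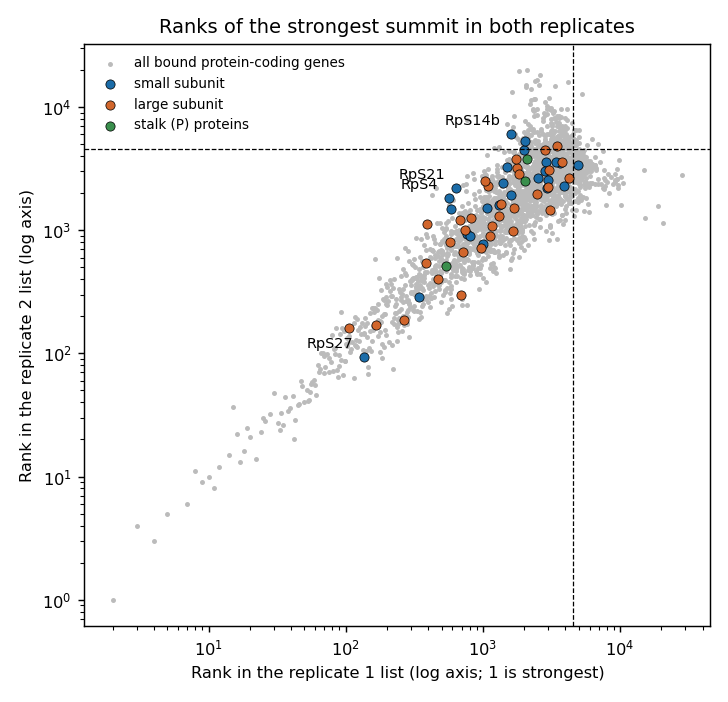
Rank of the strongest summit of each bound gene in the replicate 1 list (x axis) and the replicate 2 list (y axis), both on log axes, with grey points for all bound genes and coloured points for the 60 ribosomal protein genes matched in both. Dashed lines mark rank 4537. RpS27 lies at 137 and 94, and RpS14b, RpS21 and RpS4 lie farthest from equal ranks.

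The TCT initiator was found at most members, bound or not. A match with its C within 10 bp of an annotated start was present at 53 of 62 bound members (85.5%) and 19 of 24 others (79.2%), against 571 of all protein-coding genes (4.09%). The C lay from -4 to 9 bp from the start, with a median of 4 bp, and at 54 of the 72 members with a match it lay from 2 to 6 bp downstream. RpL34b, RpL23A and RpLP1, printed above, show it there. Members with a match were bound in 53 of 72 cases (73.6%) and those without in 9 of 14 (64.3%). Among all genes with a match, the 72 members included, 220 of 571 (38.5%) were bound, and among those without 23.5%. At RpL34a, RpS12 and RpS20 no match was found, which says only that these letters are not within 10 bp of an annotated start.

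Short sequences around the summit were counted on both strands in windows of 201 bp, for the 62 member summits and for 2307 strongest summits of all bound genes. The summit lay within 100 bp of the gene's own start at 79.0% of bound members, against 35.7% of all bound genes. Member windows thus more often covered that start, and the part of this in the shares was not tested. The DRE (TATCGATA) was in 14 member windows (22.6%), against 8.45%, and the motif 1 core (GGTCACAC) in 8 (12.9%), against 5.16%. The E-box CACGTG, which Myc and Max can bind, was in 7 (11.3%), against 2.90%. Windows with the DRE included RpL28, RpL41, RpL19, RpS25 and RpS12, and those with GGTCACAC included RpL7, RpLP0, RpLP1 and RpL30.

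Other sequences were less frequent at members. GAGAGAG, the repeat read by GAGA factor, was in 0 of 62 windows, against 6.20%. ACAGTGG, a 7-mer picked for its frequency in an earlier analysis of these same peaks, was in 1 (1.61%), that of RpL34b, against 7.63%. The TATA box (TATAAA) was in 10 (16.1%), against 29.3%. The E-box CAGCTG, of the kind that proneural proteins bind, was in 6 (9.68%), against 14.3%, and the N-box (CACAAG or CACGAG) in 5 (8.06%), against 11.4%. The median GC content of the member windows was 42.8%, and that of all bound windows 37.8%, and the part of this difference in the shares was not tested.

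**Figure D5:**
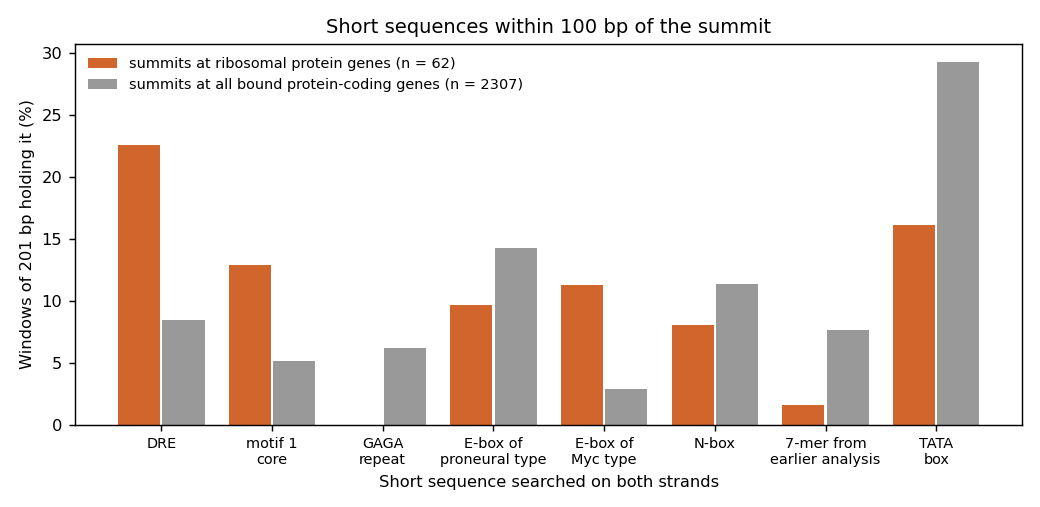
Share of 201 bp windows centred on the strongest summit that hold each of 8 short sequences, for the 62 ribosomal protein gene summits and for 2307 summits of all bound protein-coding genes. The member bars are above the others for the DRE, the motif 1 core and the E-box CACGTG, and below them for the other 5.

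The same sequences were counted within 100 bp of the annotated starts, where the bound and the other members can be set side by side. The DRE was at 17 of 62 bound members (27.4%) and 7 of 24 others (29.2%). It was at 13.1% of all bound genes and 8.48% of all genes. The motif 1 core was at 9 (14.5%) and 3 (12.5%), against 11.8% of all bound genes and 7.55% of all genes. For this core the bound members were thus close to all bound genes. In the same order, the E-box CACGTG was at 15 (24.2%) and 3 (12.5%), against 5.43% and 3.68%. The N-box was at 5 (8.06%) and 5 (20.8%), against 19.9% and 16.4%. The TATA box was at 14 (22.6%) and 7 (29.2%), against 30.9% and 34.1%. A gene with several starts offers more windows, and bound members more often had several. The shares of the DRE and of the motif 1 core thus hardly differed between the bound and the other members, and none of these shares was tested.

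Genes that act with the ribosomal proteins were also read from the list. Of 15 genes for ribosome assembly and ribosomal RNA, 9 were bound, against 24.1% of all protein-coding genes. They were eIF6, the factor that keeps the subunits apart, at rank 40, Ns2 at 146, NHP2 at 1234, Nopp140 at 1531, Fib, which encodes fibrillarin, at 2138, nclb at 2407, Nop56 at 2769, bys at 2850 and Ns1 at 3158. Several of these were counted through a summit nearer to another gene's start. It was 31 bp from CG3085 at Fib, 10 bp from mRpS11 at Ns1, 78 bp from CG30015 at nclb and 509 bp from mats at Nop56. The summit of bys is the one it shares with RpS6. Summits of eIF6 and Ns2 ranked above or between the strongest members. Polr1A, Polr1B and Tif-IA, which act in transcription of ribosomal RNA genes, were outside the thresholded set. Rack1, a protein of the small subunit head outside the naming rule, was bound at rank 1313, 10 bp upstream of its start.

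Of 8 regulators known to act at ribosomal protein genes, with Myc or in the response to their loss, 6 were bound, against the same 24.1% of all genes. Irbp18 ranked 188 and Xrp1, its partner in the response to Minute mutations, ranked 4447. Dref ranked 1618 through the summit it shares with RpL13, and M1BP ranked 1896. Mnt (1845) and Max (3919) were bound, while Myc had no pooled summit and Trf2 had rank 4915. The summits of Irbp18, M1BP and Max lay nearer to another gene's start. They were 15 bp from APP-BP1, 74 bp from CG8202 and 66 bp from CG42374. These genes and the assembly genes were chosen by hand, with earlier results of these peaks known.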

How the data were processed

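The 2 samples form 1 group of biological replicates per the labels, with fragments of 200 to 800 bp. The deposited inventory files state that peaks were called in each replicate and in their pool against a control, followed by IDR thresholding. The aligner and peak caller were not given in the sources used here. Each peak's signal value is the deposited value of the authors' peak caller, and it ranked peaks within a list only. Lists on dm6 were used, and those on dm3 were not. The depth is unknown, so no intervals for counting error were given. All 4537 thresholded peaks were the strongest of the pooled list. Starts came from Ensembl release 115 (BDGP6.54) and sequence from the RefSeq Release 6 genome. A replicate alone was represented by its 4537 strongest summits. With 1 group no condition was tested, and shares are given beside those of all protein-coding genes.

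Members and lists were chosen with earlier results of these data known. Named genes were the 15 members with the strongest summits, both copies of each pair, the 5 weakest bound members, every member outside the set, the 3 of most different replicate ranks, members of known role and bound genes of the other lists. The genes RpL8, RpS25 and others printed or named beside a motif, a neighbour or a distance were picked after their values were seen. Some members are counted but are not reported by name here. Alternatives covered other distances, the 1000 strongest summits, each replicate alone, the outermost start, the nearest gene, peak overlap, the relaxed list, interval midpoints and other motif windows. The summit assignment was tested on simulated data. The scripts ran in Python 3.11.15 (numpy 2.4.6; scipy 1.17.1; matplotlib 3.10.9).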

Additional observations from a re-analysis of the deposited data

How the results depend on the processing

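With the 1000 strongest summits in place of all thresholded ones, fewer peaks entered: 20 ribosomal protein genes were bound, with 20 distinct summits, 16 of them upstream of the start, a median rank of 609, and 15 with another protein-coding start within 1000 bp. Windows of 50 bp to each side of the summit hold fewer bases. In them CACGTG was at 4 bound members (6.45%, against 1.3% of the summits of all bound genes). The N-box was at 2 (3.23%, against 5.72%) and the TATA box at 3 (4.84%, against 15.3%). Under each other alternative run, counts stayed within 1.5 times the reported ones. Medians stayed within a band from -59 to -17 bp for the position and from 1038 to 2145 for the rank. The band is a 95% order-statistic interval over the bound genes and does not measure replicate error. The alternatives reuse mostly the same genes, so staying within it is a weak check. With either replicate left out, 62 members were bound and 45 shared their summit with another start, with 69 to 70 summits, 47 to 51 of the strongest upstream, a median position of -33.5 to -24.5 bp and a median rank of 1382 to 1963. No paired analysis was possible because there is 1 group. The lists hold no read counts, so occupancy below the peak callers' limits and differences in depth between the replicates could not be assessed. Shared promoters limit the assignment of a summit to a gene, and a tagged protein stands for the native one.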
